A study of Mus musculus with 384 samples.

Results

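The 8 transcripts described here encode both enzymes that can start haem synthesis (Alas1 and Alas2), the adult alpha and beta chains of haemoglobin (Hba-a1, Hba-a2, Hbb-bs and Hbb-bt), and 2 further red cell proteins, the membrane anion exchanger Slc4a1 and the bisphosphoglycerate mutase Bpgm. They were chosen by name, through the Ensembl identifier of each row and the GENCODE M21 annotation. The rule used none of their values, but the choice was made with earlier results of these data known. All 8 were found among the 21454 genes of the table, and all 8 were among the 14602 genes that passed the filter on low values and were tested.

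Liver RNA was sequenced from 192 wild type Diversity Outbred mice, an outbred stock bred from several inbred founder strains in which each animal carries its own mix of founder alleles, killed at 26 weeks of age. The 4 groups were 50 females and 48 males on standard chow with 6% fat by weight, and 48 females and 46 males on a high fat diet with 22% fat by weight, both fed from weaning. The letter F or M in each mouse name matched its sex label. The labels also give an outbreeding generation, G11L1 for 97 mice and G11L2 for 95, without saying what L1 and L2 stand for, and each group held between 21 and 25 mice of each. The founder alleles that a mouse carried at these genes were not analysed here.

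Each gene has 1 value per mouse, a read signal that the authors scaled to the upper quartile of that mouse, here called the signal. The spacing of the low values put the depth at roughly 9.79 to 17.9 M reads per mouse (M for mega), with a median of 14.2 M. A summed signal of 7 hepatocyte transcripts had group medians of 19720 to 27224, so the tissue read as liver in every group. In 1 mouse labelled female, F385, the female-specific RNA Xist was as low as in males (signal 0.361), and 19 mice carried pancreas transcripts. Where leaving these mice out changed a call of one of the 8, both values are given. Differences below are on the scale log2(signal + 0.0629), with their standard errors (SE), from a limma fit across all tested genes with the generation label as a covariate; a gene is called when its p, adjusted by Benjamini-Hochberg over all tested genes, is under 0.05.

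Haem is made from glycine and succinyl-CoA in a chain of enzymes that starts and ends in the mitochondrion. The first step, aminolevulinate synthase, sets the rate. Alas1 carries it out in nearly all tissues and in the liver supplies haem for cytochromes P450 and catalase; it is held down by haem itself and raised by fasting signals, clock factors and drug-sensing receptors. Alas2 is the X-linked form of red cell precursors, which need far more haem for haemoglobin, and is controlled by erythroid factors such as GATA1 and, through its message, by iron. In an adult liver, globin messages are known mainly from blood in the vessels, since blood formation has moved to marrow and spleen.

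On GRCm38 with the GENCODE M21 annotation, Alas1 (ENSMUSG00000032786) lies at chr9:106233455-106248654 on the minus strand and Alas2 (ENSMUSG00000025270) at chrX:150547375-150570638 on the plus strand. The alpha globin genes Hba-a1 (ENSMUSG00000069919, chr11:32283511-32284465) and Hba-a2 (ENSMUSG00000069917, chr11:32296489-32297298) lie side by side on the plus strand. The beta globin genes Hbb-bs (ENSMUSG00000052305, chr7:103826534-103828096) and Hbb-bt (ENSMUSG00000073940, chr7:103812524-103813996) are neighbours on the minus strand. Slc4a1 (ENSMUSG00000006574) lies at chr11:102348824-102366203 on the minus strand and Bpgm (ENSMUSG00000038871) at chr6:34476207-34505613 on the plus strand. All 8 are annotated as protein coding, and the signal covers their exons.

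Both globin pairs are near-copies, and their sequences are shown because they decide which reads can be told apart. The coding sequences of Hba-a1 and Hba-a2 are 426 bases long and differ at 1 base, C381T, counted from 1 at the first coding base with the Hba-a1 base first. Those of Hbb-bs and Hbb-bt are 441 bases long and also differ at 1 base, C417T, with the Hbb-bs base first. The 60 bases that end at each difference, with the differing base in capitals, read as follows in the reference transcripts.
Hba-a1: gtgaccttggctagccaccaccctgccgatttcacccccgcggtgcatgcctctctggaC
Hba-a2: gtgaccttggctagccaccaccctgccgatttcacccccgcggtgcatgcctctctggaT
Hbb-bs: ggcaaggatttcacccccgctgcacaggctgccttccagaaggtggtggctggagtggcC
Hbb-bt: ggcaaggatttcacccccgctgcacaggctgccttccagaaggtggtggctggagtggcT
Of all 100-base words in its transcripts, the read length, Hba-a1 shared 63.3% with Hba-a2 and Hba-a2 shared 79.5% with Hba-a1. Hbb-bs shared 49.7% with Hbb-bt, and Hbb-bt 54.8% with Hbb-bs. How reads that fit both copies were counted is not given in the sources used here, so the split of the signal within each pair is uncertain. The sum of a pair is the firmer value, but leaving such reads out would lower it too. Slc4a1 and Bpgm shared none of their words with another gene. Alas1 shared 3.97% with 4930500F10Rik, and Alas2 shared 8.88% with its neighbour Apex2, whose exons overlap 311 of the 2403 exon bases of Alas2 (12.9%) on the opposite strand.

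The stretches before the start sites are shown because the globin genes moved together across mice. The RefSeq promoter windows, 250 bases before to 50 after each start on GRCm38.p6, held 7 of the 8 genes, with 2 windows for Alas1. For Alas2 and the globin genes, only bases outside annotated exons are printed, and capitals mark a GATA-type match (AGATAA or TGATAA, on either strand), the letters bound by the erythroid factor GATA1 and its relatives.
Alas2, chrX:150547167-150547374, plus strand: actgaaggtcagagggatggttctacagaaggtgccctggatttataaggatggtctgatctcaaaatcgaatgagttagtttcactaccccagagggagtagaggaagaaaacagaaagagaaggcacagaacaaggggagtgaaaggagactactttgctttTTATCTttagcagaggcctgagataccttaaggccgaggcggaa
Hba-a2, chr11:32296242-32296488, plus strand: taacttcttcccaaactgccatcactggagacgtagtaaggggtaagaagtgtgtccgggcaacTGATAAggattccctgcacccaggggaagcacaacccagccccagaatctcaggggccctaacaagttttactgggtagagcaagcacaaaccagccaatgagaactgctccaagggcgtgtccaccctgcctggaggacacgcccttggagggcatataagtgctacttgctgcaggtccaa
Hbb-bs, chr7:103828097-103828178, minus strand: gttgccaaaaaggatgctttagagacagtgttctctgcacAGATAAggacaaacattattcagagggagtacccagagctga
Hbb-bt, chr7:103813997-103814173, minus strand: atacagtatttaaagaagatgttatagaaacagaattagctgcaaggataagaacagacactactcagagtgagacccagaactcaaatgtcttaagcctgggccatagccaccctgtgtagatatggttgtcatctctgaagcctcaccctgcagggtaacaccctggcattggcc
AGATAA occurred in the windows of Alas2 (position -86 from the start, on the opposite strand, hence TTATCT above) and Hbb-bs (position -210), and in 11.2% of all 32851 promoter windows. TGATAA occurred in those of Hba-a1 and Hba-a2 and in 9.05% of all windows. The Hba-a1 and Hba-a2 windows were identical over all 297 bases in which they overlap. The KLF letters CCACACCC were found for Hbb-bs alone, at position -93 outside the stretch printed (3.56% of all windows), the STAT5 letters TTCNNNGAA for Alas1 alone (8.30%), and the E-box CACGTG for none of the 8 windows (7.15%). The NRF1 palindrome, named for a factor of mitochondrial and haem genes, was found in both Alas1 windows and in 0.971% of all windows. It lies at position 30 from the start of one window and -195 from that of the other, and inside annotated Alas1 exons. Its surroundings on chr9:106247906-106247935, minus strand, with the match in capitals, are shown because it was the rarest of the motifs searched.
Alas1, NRF1 match: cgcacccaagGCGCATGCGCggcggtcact
These letters describe the windows and say nothing on whether a factor was bound.

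Levels of different genes can be set side by side per kilobase of exon. On that scale Hba-a2, Hbb-bs and Hbb-bt, but not Hba-a1, were the most abundant of the 8. Over all mice the median signal per kilobase was 34.2 for Hba-a2, 32.4 for Hbb-bs and 20.8 for Hbb-bt, then 11.4 for Alas1, 2.40 for Alas2, 0.809 for Bpgm, 0.0975 for Hba-a1 and 0.0119 for Slc4a1. Hba-a2 and Hbb-bs lay within each other's spread in every group. In chow males the order changed: Alas2 at 19.5 per kilobase stood above Hba-a2, Hbb-bs and Hbb-bt, and above Alas1 at 5.90. In chow females Alas1 stood at 10.2 and Alas2 at 1.61. With Alas1 first, the pair read 14.6 and 1.46 in females fed the high fat diet, and 11.8 and 9.02 in males so fed.

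**Figure D1:**
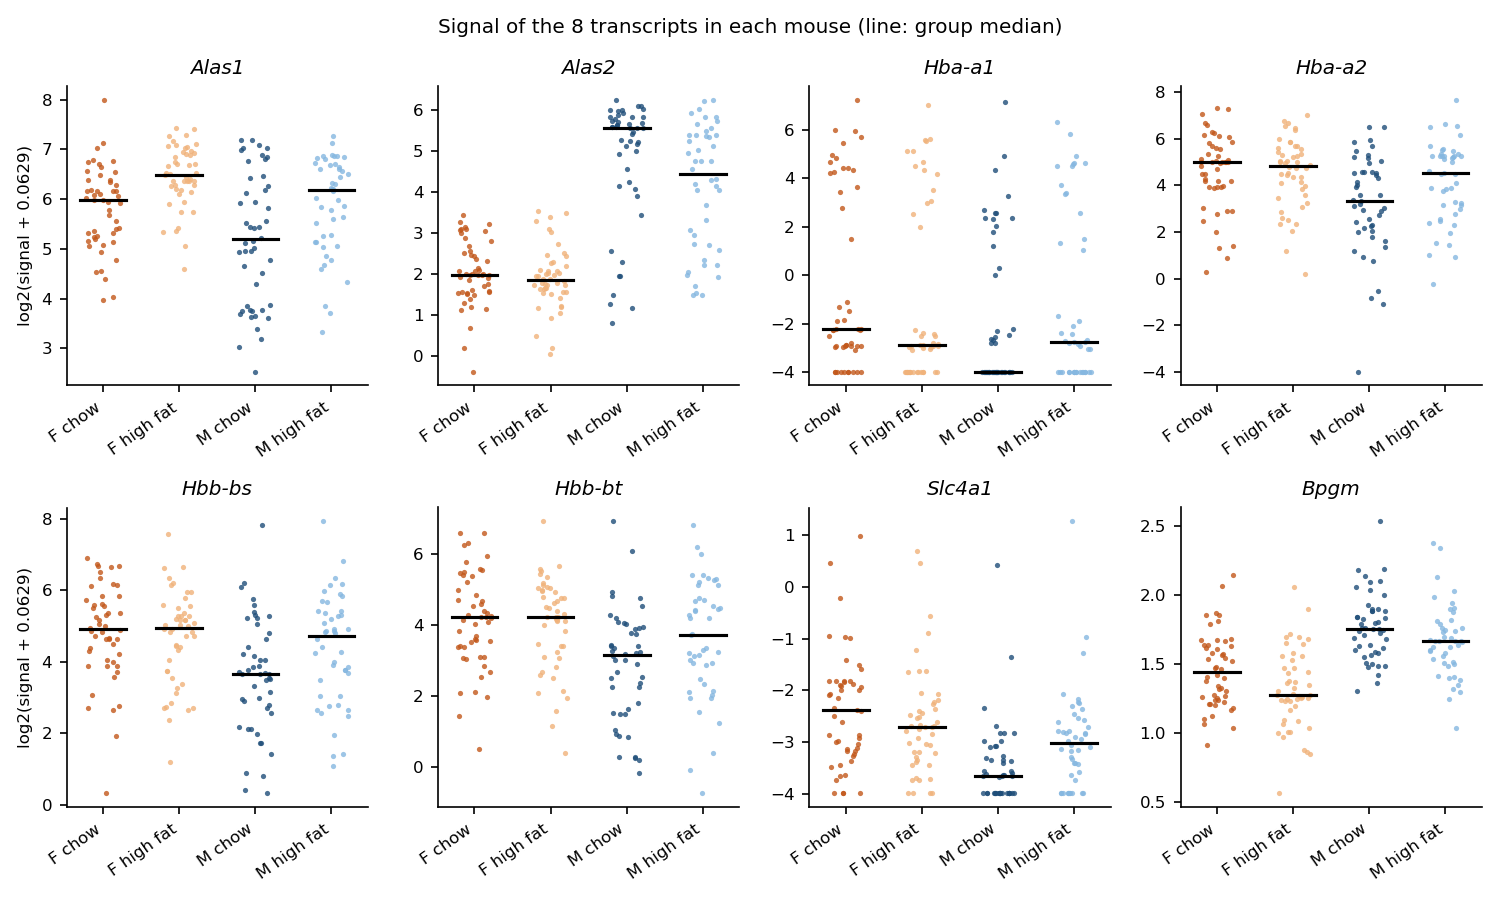
Signal of the 8 transcripts in each of the 192 mice, as log2(signal + 0.0629) on the y axis, by group on the x axis; each point is 1 mouse and each line the group median. Alas2 is high in most but not all males, Hba-a1 falls into a low and a high set in every group, and the other globin genes and Slc4a1 are lowest in chow males.

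Alas1, the general form of the first enzyme, was lower in males and higher on the high fat diet. Its signal ran from 15.7 to 256 with a median of 63.1 in chow females, and from 24.2 to 172 with a median of 90.1 in high fat females. In chow males it ran from 5.71 to 145 (median 36.5), and in high fat males from 9.94 to 154 (median 72.7). The 4 groups overlapped widely; the medians ordered high fat females, high fat males, chow females and chow males. Averaged over diets, males were lower by 1.52-fold (log2 difference -0.60 ± 0.14 SE, limma adjusted p = 5.80e-05), and the high fat diet was higher by 1.58-fold averaged over sexes (0.66 ± 0.14, limma adjusted p = 1.74e-05). The diet difference was of like size in females (0.64 ± 0.19) and males (0.68 ± 0.20), with an interaction of 0.04 (95% interval -0.51 to 0.58). Within generation labels the diet difference was 0.59 (G11L1, adjusted p = 0.146) and 0.70 (G11L2, 0.0541) in females, not called, and 0.63 (0.0785, not called) and 0.71 (0.0356) in males. The sex difference was -0.82 (adjusted p = 0.00014) in G11L2 mice and -0.39 (adjusted p = 0.0931, not called) in G11L1 mice.

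Alas2, the erythroid form, showed the largest sex difference of the 8, and most males were well above all females. Its signal ran from 0.697 to 10.7 with a median of 3.87 in chow females, and from 0.964 to 11.5 with a median of 3.50 in high fat females. In chow males it ran from 1.68 to 75.7 (median 46.9), and in high fat males from 2.71 to 76.0 (median 21.7). Of the 94 males, 69 were above the highest female and 25 were not: 9 of 48 for chow and 16 of 46 for the high fat diet. Males were 5.60-fold higher averaged over diets (2.48 ± 0.17, limma adjusted p = 1.34e-30), 6.76-fold for chow and 4.64-fold for high fat mice. The high fat diet was lower in males (-0.67 ± 0.25, limma adjusted p = 0.0160), a call lost after median-of-ratios rescaling (-0.57, adjusted p = 0.0571). In females the diet difference was -0.13 (95% interval -0.61 to 0.34), and the interaction was -0.54 ± 0.35 (adjusted p = 0.331), so a difference in diet response between the sexes was not shown.

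The male values of Alas2 fell into 2 clumps. A kernel density of the log2 values had peaks at signals of 3.11 and 50.4 in chow males, with 8 mice below and 40 above the low point between them at 8.11. In high fat males the peaks were at 4.72 and 38.5, with 15 mice below and 31 above 9.84, but a bandwidth 2 times as wide left 1 peak. The lower male clump thus lay where the main female peaks lay, at 3.61 for chow and 3.41 for the high fat diet. Females had smaller peaks too. In high fat females, 42 mice lay below and 6 above the low point at 7.13 between peaks at 3.41 and 10.1. The density there was 0.635 of that at the lower peak, against 0.817 in high fat males. A bandwidth 2 times as wide left 1 peak in each female group. In chow males it left 2 with almost no dip (0.997). Both generation labels held high and low males: among high fat males, medians were 19.5 in G11L1 and 26.8 in G11L2. The scatter around the group median was larger in males for Alas2 (0.60 ± 0.13, limma adjusted p = 0.000276) and for Alas1 (0.38 ± 0.084, adjusted p = 0.000701), 2 of the 8 against 4.90% of all genes tested (4.27% more scattered in males); no member differed in scatter by diet (0 of 8 at adjusted p under 0.05 in limma, against 2.23%, with 1.86% more scattered on the high fat diet), although Alas1 was at an unadjusted p of 0.00184.

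**Figure D2:**
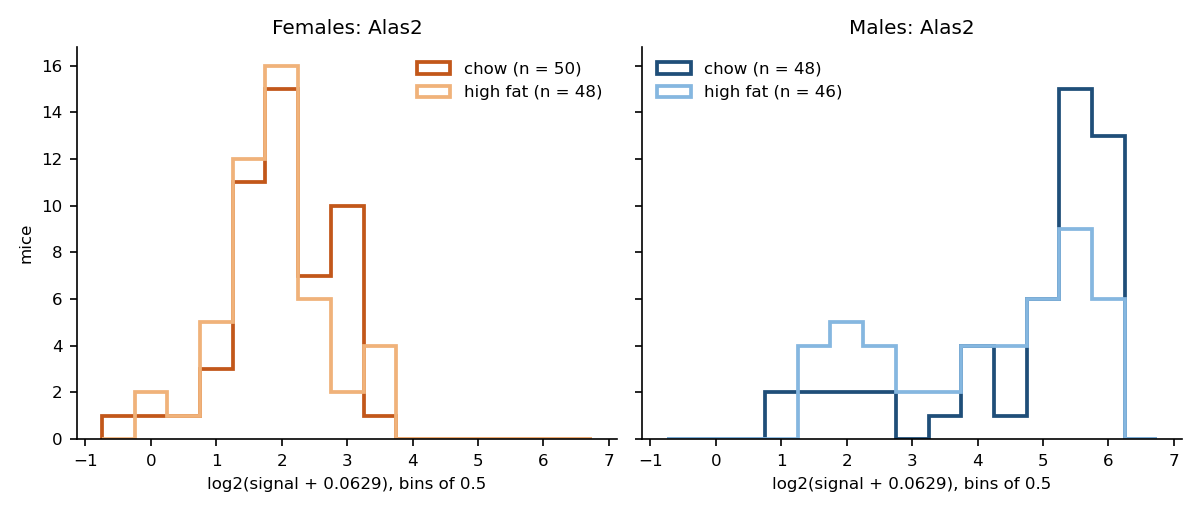
Number of mice (y axis) by Alas2 level, as log2(signal + 0.0629) in bins of 0.5 (x axis), for females on the left and males on the right, with chow and high fat groups as separate outlines. Female values form 1 main heap near 2, while male values spread between a heap near 2 and a larger one between 5 and 6.

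Apex2, a DNA repair nuclease whose annotated span covers all of Alas2 on the opposite strand, was also higher in males, with medians of 1.17 (chow) and 1.20 (high fat) in females against 1.87 and 1.76 in males. Of 10238 genes compared, Apex2 was the most like Alas2 across mice (Spearman rho 0.45 over 192 mice, on residuals of the group and generation means), with rho of 0.41 in chow females, 0.05 in high fat females, 0.25 in males on chow and 0.79 in high fat males. Whether the counting used strand is not given in the sources used here, so reads of the overlapping bases cannot be assigned to one of the genes. The next were Tmem29 (rho 0.40), Aadac (0.39), Phka2 (0.38) and Zhx2 (0.36). Apex2, Tmem29 and Phka2 lie on chromosome X, as Alas2 does.

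The haemoglobin messages together took 0.0322% of a mouse's summed signal in the median, and 0.00119% to 0.295% over all mice. Their sum spanned 2.94 to 581, with group medians of 79.5 in chow females, 86.5 in high fat females, 36.0 in males on chow and 77.7 in high fat males. The highest mice were M347 on chow (581), F419 on the high fat diet (537) and M418 on the high fat diet (524), followed by the chow female F348 (369). Single animals with much globin message thus occurred in all 4 groups. Each of the 4 genes varied over more than an order of magnitude within a group, and all groups overlapped.

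Hba-a2, the more abundant alpha globin gene here, had a median of 31.8 (range 1.16 to 158) in chow females and 28.7 (1.08 to 131) in high fat females. In chow males its median was 10.2 (0 to 90.1), and in high fat males 23.0 (0.789 to 206). Only 1 mouse, a chow male, was at 0. Chow males were 2.60-fold lower than chow females (-1.38 ± 0.34, limma adjusted p = 0.000172), while on the high fat diet the sexes differed by -0.44 (95% interval -1.12 to 0.23, not called).

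Hbb-bs and Hbb-bt, the adult beta globin genes, were also lowest in chow males. Hbb-bs had medians of 30.3 (range 1.19 to 120) in chow females, 30.9 (2.20 to 191) in high fat females, 12.6 (1.18 to 227) in males on chow and 26.5 (2.04 to 245) in high fat males. Hbb-bt had medians of 18.6 (1.338 to 96.6), 18.8 (1.24 to 123), 8.78 (0.821 to 123) and 13.2 (0.530 to 114) in those groups. Chow males stood lowest for both, 2.34-fold below chow females for Hbb-bs (-1.23 ± 0.29, limma adjusted p = 7.83e-05) and 2.38-fold for Hbb-bt (-1.25 ± 0.29, adjusted p = 6.46e-05). Hbb-bt made up 14.3% to 53.0% of the beta globin signal, with group medians between 37.8% and 40.0%. The balance within the beta pair was thus nearly the same in the 4 groups while its total was not. In bulk liver, less blood in the sample and less message per blood cell cannot be told apart.

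Hba-a1 behaved unlike its twin. Its signal was 0 in 68 of 192 mice, and 132 mice lay below the low point of its density at 1.18, with group medians of 0.149 in chow females, 0.0712 in high fat females, 0 in males on chow and 0.0856 in high fat males. The highest values were 151, 129, 141 and 79.4 in those groups. As a share of the alpha globin signal, Hba-a1 took under 2% in 130 mice, between 20% and 60% in 41 and at least 60% in 21, and no mouse lay between 2% and 20%. The split was nearly the same in each group: 33 of 50 chow females, 33 of 48 high fat females, 33 of 48 chow males and 31 of 46 high fat males were under 2%. A bandwidth 2 times as wide left 1 density peak in each group, though still 2 over all mice. The split was also present under both generation labels, where the low point of the density put 70 of 97 G11L1 mice and 61 of 95 G11L2 mice in the low set. Neither sex (-0.69 ± 0.51, adjusted p = 0.221) nor diet (0.04 ± 0.51, adjusted p = 0.952) was called for Hba-a1, and its 2 clumps make a mean difference a poor summary. In chow the sex difference was -1.32 ± 0.71 (adjusted p = 0.0959), but it was called with a pseudocount 10 times smaller (-2.22, adjusted p = 0.0333) and on rank scores (adjusted p = 0.00869).

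**Figure D3:**
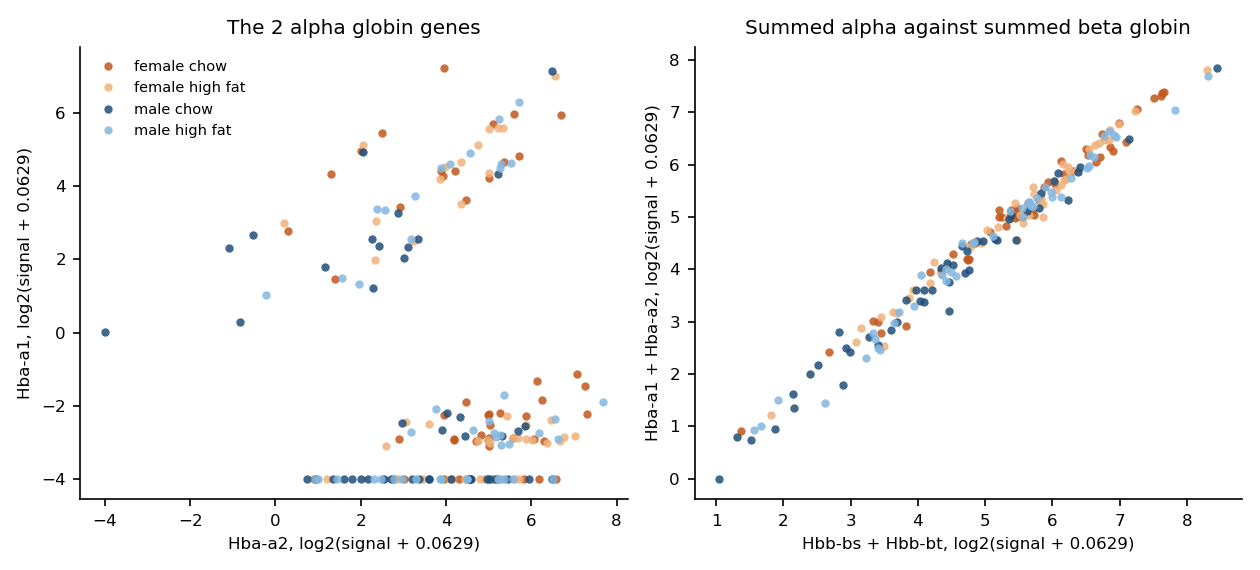
Each point is 1 of 192 mice, coloured by group, on axes of log2(signal + 0.0629). On the left, Hba-a1 against Hba-a2 separates mice with almost no Hba-a1 from mice with much of it; on the right, the summed alpha globin signal follows the summed beta globin signal along a single line (r = 0.991).

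Summed alpha globin followed summed beta globin almost exactly. On residuals of the group and generation means, r was 0.991 and rho 0.989 over 192 mice (0.9906 without the 2 mice farthest from the median), and r was between 0.989 and 0.993 within each of the 4 groups. The alpha genes taken one against the other gave r = -0.14 and rho = -0.05 (permutation test, adjusted p = 0.0739 and 0.590). The reads shared by the twin genes, described with the sequences above, bear on the split. How they were counted is not given, so whether they also bear on the sums is not known.

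Slc4a1, band 3, the chloride and bicarbonate exchanger of the red cell membrane, was near the detection limit. Its median was 0.128 (range 0 to 1.91) in chow females, 0.0908 (0 to 1.56) in high fat females, 0.0168 (0 to 1.27) in males on chow and 0.0608 (0 to 2.35) in high fat males, or about 8.49, 6.00, 0.999 and 4.00 reads. In 86 of 192 mice fewer than 3 reads stood behind the value, 39 of them among the 48 chow males. Males were 1.63-fold lower averaged over diets (-0.71 ± 0.13, limma adjusted p = 8.61e-07), and 2.07-fold on chow. At such counts the pseudocount pulls fold changes towards 0.

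Bpgm makes the bisphosphoglycerate that loosens the grip of haemoglobin on oxygen, and it varied least of the 8. Its median was 2.65 (range 1.82 to 4.36) in chow females, 2.35 (1.41 to 4.10) in high fat females, 3.31 (2.40 to 5.72) in males on chow and 3.10 (1.99 to 5.13) in high fat males. It was 1.26-fold higher in males (0.33 ± 0.038, limma adjusted p = 1.16e-14), opposite to the globins and Slc4a1, with overlap between all groups. It was 1.09-fold lower on the high fat diet (-0.12 ± 0.038, adjusted p = 0.00390), a call lost after median-of-ratios rescaling (-0.05, adjusted p = 0.319).

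Read together, 7 of the 8 transcripts differed between the sexes averaged over diets, Alas2 and Bpgm higher in males and Alas1, Hba-a2, Hbb-bs, Hbb-bt and Slc4a1 lower, where 68.5% of all genes tested were called (45.0% higher and 23.5% lower). With median-of-ratios rescaling those shares became 30.4% higher and 33.5% lower, and the same 7 calls were made in the same directions. The median log2 difference of the 8 was -0.70, against 0.071 over all genes. On chow 7 were called (63.3% of all genes, 44.1% higher and 19.1% lower), and on the high fat diet 3, Alas2, Bpgm and Alas1 (49.7% of all genes, 31.5% higher and 18.3% lower). A count of 7 of 8 is near this background.

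Diet gave fewer calls. Averaged over sexes, 3 of the 8 were called, Alas1 higher and Alas2 and Bpgm lower, against 56.9% of all genes (15.0% higher and 41.9% lower, or 24.9% and 22.9% after median-of-ratios rescaling). The Alas2 call (-0.40, adjusted p = 0.0376) was lost after that rescaling (-0.33, adjusted p = 0.105). In females 2 were called, Alas1 higher and Bpgm lower (33.3% of all genes, 10.0% higher and 23.3% lower), and the Bpgm call (-0.14, adjusted p = 0.0297) was lost without the mice with pancreas transcripts (-0.12, adjusted p = 0.0745). In males 6 were called (51.2% of all genes, 11.4% higher and 39.8% lower): besides Alas1 and Alas2, Hba-a2 rose by 0.89 ± 0.35 (adjusted p = 0.0238), Hbb-bs by 0.73 ± 0.29 (0.0292), Hbb-bt by 0.70 ± 0.29 (0.0373) and Slc4a1 by 0.45 ± 0.19 (0.0395). In G11L1 males alone, Hba-a2 was at 1.45 (adjusted p = 0.00196), Hbb-bs at 1.23 (0.00295) and Hbb-bt at 1.18 (0.00543), all called, and Slc4a1 at 0.67 (0.0533), not called. In G11L2 males the same genes were at 0.30 (0.725), 0.17 (0.811), 0.17 (0.809) and 0.25 (0.469), none called, and the difference between the labels was not tested. Without the 19 mice with pancreas transcripts, Hbb-bs (0.68, adjusted p = 0.0529) and Slc4a1 (0.47, adjusted p = 0.0528) were no longer called in males. With the haemoglobin level as a covariate, the diet difference of Slc4a1 in males was 0.21 (adjusted p = 0.304) and that of Bpgm was -0.18 (adjusted p = 0.000931). This covariate was the mean of the log2 values of Hba-a1, Hba-a2, Hbb-bs and Hbb-bt, and not the haemoglobin sum.

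Whether the diet response differed between the sexes was tested by the interaction. None of the 8 was called in limma (8.38% of all genes were, 1.46% positive and 6.92% negative), and 3 were at an unadjusted p under 0.05: Hbb-bs at 0.88 ± 0.41 (adjusted p = 0.160), Hbb-bt at 0.82 ± 0.41 (0.201) and Slc4a1 at 0.68 ± 0.27 (0.0884). In G11L1 mice alone, Hba-a2 (1.81, adjusted p = 0.0373) and Hbb-bs (1.57, adjusted p = 0.0429) were called. Hbb-bt and Hba-a1 were not called there.

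Hba-a2, Hbb-bt and Slc4a1 were lower in G11L2 than in G11L1 mice, 3 of the 8, where 0.938% of all genes were called (0.397% higher and 0.541% lower). Median Hba-a2 was 31.5 in G11L1 and 14.7 in G11L2 mice, a 2.03-fold difference (-1.02 ± 0.24, limma adjusted p = 0.0172). By group, the G11L1 and G11L2 medians were 32.3 and 22.2 in chow females, 32.5 and 22.9 in high fat females, 12.1 and 8.53 in chow males, and 37.1 and 6.85 in high fat males. The label thus ordered Hba-a2 the same way in all 4 groups, with overlap in each. A smaller part of G11L2 than of G11L1 mice lay in the low Hba-a1 set, as given above. The part of this split in the Hba-a2 difference was not tested. No sex, diet or generation difference was tested on the sum of a globin pair.

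Slc4a1 had medians of 0.1 in G11L1 and 0.0395 in G11L2 mice (-0.67 ± 0.13, 1.60-fold, adjusted p = 0.00238). Its group medians were 0.203 and 0.0580 in chow females, 0.123 and 0.0462 in high fat females, 0.0164 and 0.0179 in chow males, and 0.0909 and 0.0179 in high fat males, so chow males, mostly under 3 reads, did not follow. The call was lost with a pseudocount 10 times larger (-0.17, adjusted p = 0.0547). Hbb-bt had medians of 18.2 and 10.5 (-0.78 ± 0.21, adjusted p = 0.0349), and Hbb-bs of 28.1 and 21.8 (-0.59 ± 0.20, adjusted p = 0.132, not called). Hba-a1 did not go the same way (0.32 ± 0.51, adjusted p = 0.833), and Alas1, Alas2 and Bpgm were not called.

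Pancreas transcripts had close medians under the labels, a summed signal of 3.38 in G11L1 and 4.59 in G11L2 mice, and 0 of 9 tested pancreas genes were called by generation label in limma, but the highest sums were 76.4 and 1034. Without the 19 mice that carried them, Hba-a2 stayed at -1.07 (adjusted p = 0.0399) and Slc4a1 at -0.68 (adjusted p = 0.0113), and Hbb-bt was at -0.77 (adjusted p = 0.0702). With the mean log2 level of the globin genes as a covariate, Slc4a1 was lower in G11L2 mice (-0.51, limma adjusted p = 0.00652). That mean gives Hba-a1, at 0 in many mice, the weight of each other globin gene. It is thus not an adjustment for the haemoglobin sum. Of the 15 tested genes of a wider red cell list, only Gypc, a membrane glycoprotein of red cells and other cells, was called by generation label (-0.27 ± 0.063, adjusted p = 0.0172). Among iron genes Hamp, the hormone hepcidin that blocks iron release, was higher in G11L2 mice (0.83 ± 0.12, adjusted p = 1.68e-06), and among liver haem proteins Cyp3a11 (-0.56 ± 0.14, adjusted p = 0.0220) and Cyp2c29 (-0.30 ± 0.073, adjusted p = 0.0195) were lower; these 4 genes were named after their values were seen.

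**Figure D4:**
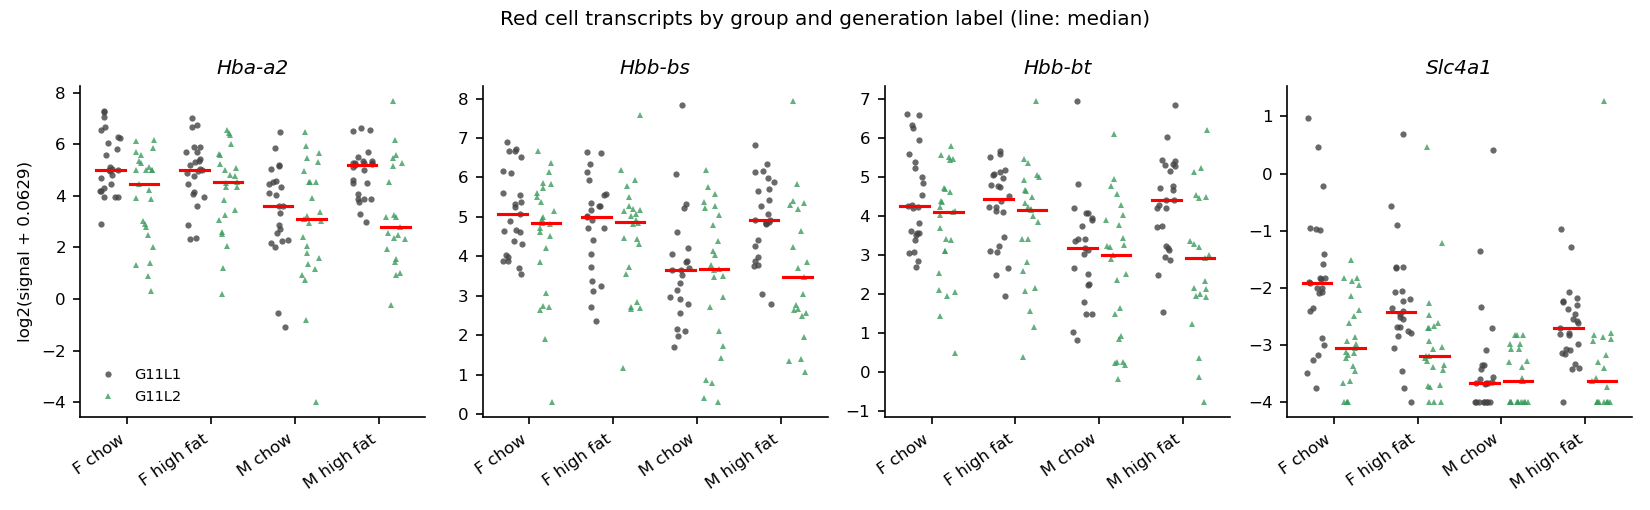
Hba-a2, Hbb-bs, Hbb-bt and Slc4a1 in each mouse, as log2(signal + 0.0629) on the y axis, by group on the x axis, with G11L1 mice as grey circles, G11L2 mice as green triangles and red lines at the medians. G11L2 medians are lower for Hba-a2 in all 4 groups, most in high fat males (37.1 against 6.85).

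The coat colour of the mice gave a further comparison, since Tyr, the gene of the white coat, lies on the chromosome of the beta globin genes. White mice (25) were compared with agouti (131) and black (30) mice. None of the 8 was called in limma (0 of 8, none at an unadjusted p under 0.05, against 0.0137% of all genes, 0.00685% in each direction), with Hbb-bs at -0.17 (95% interval -0.80 to 0.46) and Hbb-bt at -0.08 (-0.72 to 0.57).

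Across mice the red cell transcripts rose and fell together. On residuals of the group and generation means of 192 mice, with 28 pairs tested by permutation, r was 0.93 for Hbb-bs with Hbb-bt, 0.86 for Hba-a2 with Hbb-bs and 0.82 for Hba-a2 with Hbb-bt (rho 0.93, 0.86 and 0.85). Slc4a1 followed them with r of 0.56 (Hbb-bs), 0.55 (Hbb-bt) and 0.44 (Hba-a2), and Bpgm with 0.56, 0.53 and 0.41. Each of these pairs had a permutation p of 1e-05, the smallest that 100000 permutations can give, and an adjusted p of 2.8e-05. Hba-a1 followed the beta globins more weakly (r 0.27 with Hbb-bs and 0.28 with Hbb-bt), as it did Slc4a1 (0.25) and Bpgm (0.28). In all, 15 pairs were called by Pearson's r and 18 by Spearman's rho. The relations within the red cell set held under both generation labels, for Hba-a2 with Hbb-bs at r = 0.84 in G11L1 and 0.87 in G11L2 mice, and without the 2 mice farthest from the median (0.87). Bpgm was thus higher in males, where the globins were lower, and yet rose with the globins from mouse to mouse within a group.

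Alas1 was correlated with none of the other 7 over all mice, and Alas2 only weakly (r of 0.20 or less with each globin gene, 0.0233 the adjusted p for Hbb-bt). Within females, Alas2 followed Hba-a2, Hbb-bs and Hbb-bt but hardly Hba-a1 (r 0.149, with no called difference between the sexes, adjusted p = 0.553). With Hbb-bs, r was 0.55 in chow and 0.57 in high fat females. In males it was -0.01 (chow) and -0.03 (high fat). The difference between the sexes was -0.605 (permutation of the sex labels within diet and generation, adjusted p over 84 tests = 0.0042). The part of the larger scatter and the clumps of male Alas2 in this difference was not tested. For Alas1 with Hbb-bs, r was 0.19 for chow and -0.28 for high fat mice, a difference of -0.468 (adjusted p = 0.00966).

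**Figure D5:**
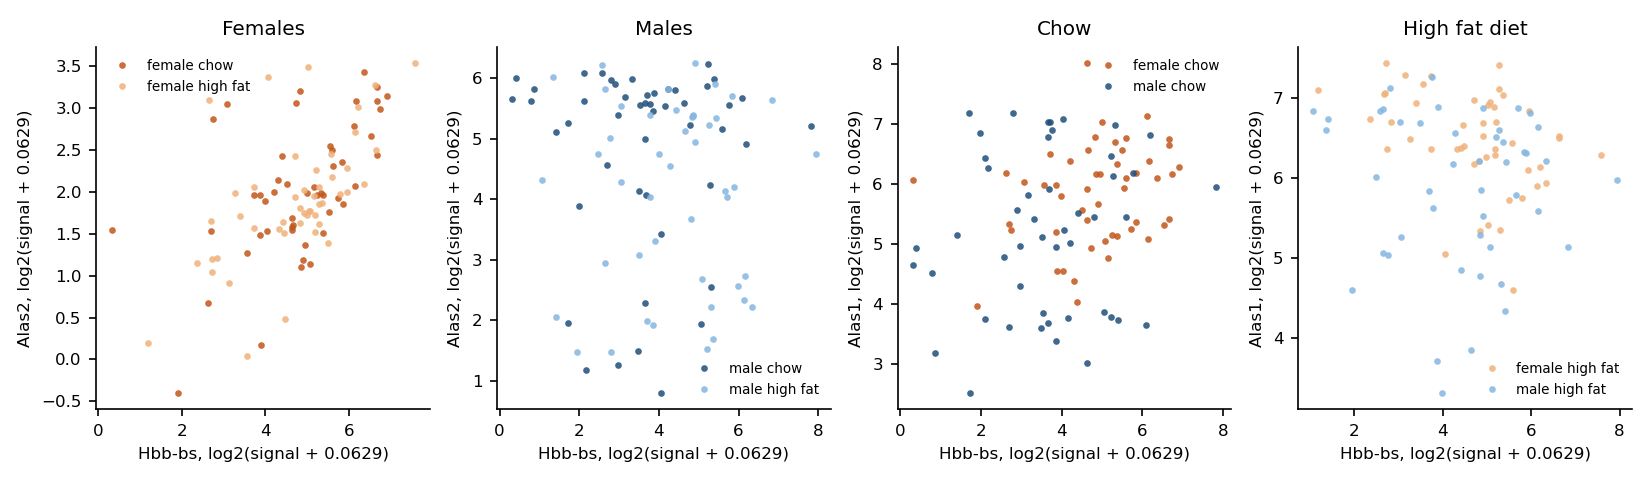
Each point is 1 mouse, with Hbb-bs on the x axis and Alas2 (first pair of panels, females then males) or Alas1 (second pair, chow then high fat) on the y axis, all as log2(signal + 0.0629) and coloured by group. Alas2 climbs with Hbb-bs in females (r = 0.583 on residuals) and not in males (-0.0223).

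The genes whose levels were most like those of the members, of 10238 with a mean signal of at least 10 pseudocounts (pseudogenes and gene models without a full name left out), differed between Alas1 and the red cell set. For Hba-a2, Hbb-bs and Hbb-bt they were first each other and then Bpgm (rho 0.42, 0.55 and 0.52), with Fam220a (0.35, 0.39 and 0.36), Mrpl57 (0.36 with Hba-a2), Ltbr (0.33 with Hbb-bs) and Yeats4 (0.37 with Hbb-bt) after them. Slc4a1 was most like Hbb-bt and Hbb-bs (0.56 each), Hba-a2 (0.48), Bpgm (0.35) and Mki67 (0.34), a marker of dividing cells. Bpgm was most like Hbb-bs, Hbb-bt, Fam220a (0.43), Hax1 (0.42) and Hba-a2. Hba-a1 had no close neighbour: Gstp2 (0.31), Hbb-bs (0.31), Hbb-bt (0.30), Smpd2 (0.29) and Bpgm (0.27) came first.

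Alas1 was most like Per1 (rho 0.69), a core gene of the circadian clock, then Coq10b (0.66), Arhgef26 (0.63), Usp2 (0.62) and Nampt (0.61). Per1 and Alas1 were related in each group, with rho of 0.68 in chow females, 0.57 in high fat females, 0.77 in males on chow and 0.62 in high fat males. Of 13 regulators known for Alas1, 10 were positively and 2 negatively related to it (permutation test, adjusted over 43 relations). The share of all genes related to Alas1 was not computed, so this count has no background to set it against. The clock gene Per2 (r 0.54, rho 0.56), the drug receptor Nr1i2 (0.52, 0.51), the insulin-restrained factor Foxo1 (0.48, 0.49) and the fasting coactivator Ppargc1a (0.31, 0.27) were positive. Npas2, a clock activator (-0.60, -0.53), and Nr1d1, a clock repressor (-0.32, -0.30), were negative, and Nrf1 was not related (-0.03, -0.02). The hour at which livers were taken is not given in the labels. By sex, 3 of the 13 regulators were higher and 5 lower in males, among them the drug receptor Nr1i3 (-0.95 ± 0.089), Ppargc1a (-0.49 ± 0.062), Hnf4a (0.27 ± 0.036) and Nrf1 (0.25 ± 0.033). By diet, 3 were higher and 6 lower, among them Per2 (0.55 ± 0.11), Nr1d1 (-0.43 ± 0.077), Hnf4a (-0.31 ± 0.036) and Nrf1 (-0.24 ± 0.033).

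For the lists that follow, the shares of all genes called are 45.0% higher and 23.5% lower by sex (30.4% and 33.5% after median-of-ratios rescaling), and 15.0% higher and 41.9% lower by diet (24.9% and 22.9%). The enzymes after the first step moved little. Of these 7 enzymes, 4 were higher in males and none lower, near the share of all genes, among them Cpox (0.23 ± 0.045), Urod (0.19 ± 0.025) and Fech (0.13 ± 0.029). On the high fat diet 3 were lower and none higher, among them Fech, which inserts the iron (-0.19 ± 0.029), and Urod (-0.07 ± 0.025). After median-of-ratios rescaling the counts were 3 higher and 1 lower by sex and 1 lower by diet, and the diet difference of Urod changed sign. Across mice, Alas1 was related to Fech alone of the 7 (r 0.24, rho 0.25), and Alas2 to Urod (0.22, 0.22) and Fech (0.20, 0.20). The sex differences named were small beside that of Alas2 (2.48).

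Among 15 genes of haem synthesis transport and protein control, 11 were higher and 1 lower in males, or 4 and 2 after rescaling, when the share higher was below that of all genes (30.4%). Abcg2, which exports porphyrins, was 3.11-fold higher in males (1.64 ± 0.052, adjusted p = 8.38e-75), and Abcb10, a mitochondrial carrier needed for haem synthesis, was higher by 0.82 ± 0.050. Flvcr2, a membrane carrier of the haem exporter family, was lower by 0.88 (-0.88 ± 0.085), and Clpp was higher (0.22 ± 0.029). On the high fat diet 9 of the 15 were lower and none higher, or 5 lower and 4 higher after rescaling. Clpx, the chaperone that acts on the Alas enzymes, was at -0.62 ± 0.076 and Pgrmc1 at -0.30 ± 0.032.

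Of 9 genes of haem breakdown and uptake, 4 were higher and 3 lower in males (3 and 5 after rescaling), and 2 were higher and 4 lower on the high fat diet (3 and 4). Ugt1a1, which conjugates bilirubin, was lower in males (-1.23 ± 0.066), and Hp, haptoglobin, which binds free haemoglobin, was higher (0.42 ± 0.078). Cd163, the receptor that takes up that complex, was lower in males (-0.46 ± 0.12) and on the high fat diet (-0.59 ± 0.12). The list of 15 liver haem proteins includes Por, the reductase of cytochromes P450, which carries no haem itself. Of the 15, 6 were higher and 4 lower in males (5 and 6 after rescaling), with Tdo2 at 0.81 ± 0.050, Cat at 0.39 ± 0.037, Cyp4a10 at -2.33 ± 0.17 and Cyp4a14 at -3.09 ± 0.27. On the high fat diet 3 were higher and 9 lower (3 and 5), with Cyp51 of sterol synthesis at -1.64 ± 0.10 and Cyp1a2 at -0.80 ± 0.072. The direction of Alas1, lower in males and higher on the high fat diet, was thus not that of most genes on this list.

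Of 11 tested iron genes, 5 were higher and 4 lower in males (1 and 6 after rescaling), among them Hamp2 (-1.71 ± 0.24), Fgl1 (-0.95 ± 0.14) and the iron exporter Slc40a1 (-0.33 ± 0.046). On the high fat diet 9 were lower and none higher (6 and 1 after rescaling), against 41.9% of all genes lower (22.9% after rescaling), with Hamp (-0.84 ± 0.12) and its inducer Bmp6 (-0.51 ± 0.058). Of 7 glycolytic neighbours of Bpgm, 2 were higher and 2 lower in males, and 3 were higher on the high fat diet (Pklr 0.34 ± 0.084, Eno1 0.22 ± 0.036 and Gapdh 0.14 ± 0.057). Of 4 relatives of Slc4a1, Slc4a7 was higher (0.24 ± 0.037) and Slc4a4 lower (-0.39 ± 0.045) in males, and both were lower on the high fat diet (-0.13 ± 0.037 and -0.18 ± 0.045).

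Other red cell messages were checked to see what the globin signal came with. Of a list of 34 further erythroid and red cell genes, 29 were in the table and 15 were tested. Defining markers of red cell precursors were near 0: 11 of the 29, among them Epb42, Rhag, Rhd, Kel, Trim10, Tspo2, Gata1, Hemgn, Hbq1a and Hbq1b, had a median of 0, and none of the genes named here exceeded a signal of 0.344 in any mouse. The tested 15 are mostly genes that liver cells also express. Of these, 5 were higher and 10 lower in males (1 and 10 after rescaling), among them Car2 (-1.02 ± 0.084), Gypc (-0.80 ± 0.063), Mkrn1 (-0.15 ± 0.026) and Car1 (0.75 ± 0.12), and 2 were higher and 6 lower on the high fat diet (5 and 5), among them Tfrc, the transferrin receptor (0.41 ± 0.090), Aqp1 (-0.25 ± 0.034), Bnip3l (-0.16 ± 0.023) and Epb41 (-0.12 ± 0.033). The summed level of the 29 ran from 94.3 to 146 in chow females, 81.3 to 125 in high fat females, 94.7 to 137 in chow males and 70.2 to 129 in high fat males. Across mice, Mkrn1 followed the haemoglobin sum weakly (r 0.25, rho 0.24) and Epor, the erythropoietin receptor, inversely (-0.30, -0.32), while r was 0.12 or less for Klf1, Tal1 and Slc25a37.

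Averaged over diets, markers of other cells were lower in males, as the globins other than Hba-a1 were. All 6 Kupffer cell and all 8 B and T cell markers were lower in males, as were 5 of 7 neutrophil and 2 of 4 platelet markers, with none higher; 1 of 5 genes of dividing cells was lower. On the high fat diet, where no globin gene was called by sex, all 8 B and T cell and 5 of 6 Kupffer markers were still lower in males. Vsig4 of Kupffer cells was at -0.74 ± 0.074 and Cd3g of T cells at -0.71 ± 0.070. The summed Kupffer level ran from 25.9 to 167 in chow females, 18.8 to 101 in high fat females, 15.2 to 65.8 in chow males and 16.3 to 92.5 in high fat males. Against chow, 5 of 7 neutrophil markers (S100a9 0.80 ± 0.15, with 1 lower), 2 platelet markers (Ppbp 0.40 ± 0.096) and all 5 genes of dividing cells (Mki67 0.74 ± 0.12) were higher on the high fat diet, and none of the B and T cell markers was called. Kupffer markers split 1 higher to 1 lower by diet. Hepatocyte markers were higher for 4 and lower for 2 of 7 by sex, and lower for 5 by diet. Of 9 tested pancreas genes only Cela1 was called, higher in males (1.73 ± 0.15) and lower on the high fat diet (-0.91 ± 0.15). Across mice, the haemoglobin sum had r of -0.09 and rho of -0.06 with the pancreas sum. The part of these cells in the sex differences of the 8 transcripts was not tested. With the mean log2 level of the globin genes, Hba-a1 included, as a covariate, males were higher for Alas2 (2.57) and Bpgm (0.41). They were lower for Alas1 (-0.57) and Slc4a1 (-0.45). An adjustment for the haemoglobin sum was not made.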

How the data were processed

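Liver RNA of 192 mice was sequenced as single-end reads of 100 bases, with 2 technical repeats per mouse (384 sequenced samples) that share 1 column; how they were combined is not given in the sources used here. The deposited values are a read signal per gene that the authors scaled to the upper quartile of each mouse, per the labels of the file. The submitters name CASAVA 1.8.0 and give the build as GRCm38 or mm10, per the submitters' processing notes; aligner, counting and strand are not given in the sources used here. Of 21454 genes, 21022 were named by GENCODE M21. Low values stepped by a common unit, read as 1 read: 73.1% to 82.4% of values up to 100 reads were whole within 0.1, too few for a count test. Counting intervals were not used.

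Genes above 0 in at least 46 mice with a mean of at least the pseudocount (0.0629, a hundredth of the median upper quartile, or about 3.99 reads) were tested with limma 3.58.1 in R 4.3.3 on log2(signal + pseudocount), with 4 group means, the generation label and a mean-variance trend, checked on simulated data. Correlations used residuals of the group and generation means and 100000 two-sided permutations within group and generation (Python 3.11.15, scipy 1.17.1). Modes are peaks of a Gaussian kernel density. P-values measure the spread between mice. Alternatives changed the pseudocount, filter, scaling, covariates, weights, block and mice. Of each list, up to 4 tested genes with the smallest p by sex and up to 4 by diet were open to naming, and for each member the 5 most alike genes. The members and lists were chosen with earlier results of these data known. Differences of correlations between groups were added after the data were seen. Some genes of the lists are counted in them but not reported here by name.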

Additional observations from a re-analysis of the deposited data

Results flagged for a closer look

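The correlations of Alas2 with Hba-a2, Hbb-bs, Hbb-bt and Bpgm differed between the sexes, and no difference was called with Hba-a1 (-0.237, adjusted p = 0.553). The test permuted the sex, diet or generation labels of mice 100000 times within the other labels, for 28 pairs and 3 contrasts, and adjusted the p-values over all 84 tests. It was added after the data were seen. The correlation of Alas2 with Hbb-bs was -0.0223 in males and 0.583 in females, a difference of -0.605 (adjusted p = 0.0042). With Hba-a2 it was 0.0102 and 0.492, a difference of -0.481 (adjusted p = 0.0114). With Hbb-bt the difference was -0.495 (0.0474 and 0.542, adjusted p = 0.00966), and with Bpgm it was also -0.495 (-0.0652 and 0.430, adjusted p = 0.0098). Alas2 with Slc4a1 differed by -0.347 (adjusted p = 0.0607), and by -0.491 on rank scores (adjusted p = 0.00806). Alas2 itself was more scattered in males and fell into clumps there, as described above. The part of this in these differences was not tested.

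The correlations of Alas1 with 3 of the 4 globin genes differed between the diets, and that with Hba-a1 did not (-0.0193, adjusted p = 0.979). Only the differences were tested. With Hba-a2 the correlation was -0.329 on the high fat diet and 0.136 on chow, a difference of -0.464 (adjusted p = 0.00966). With Hbb-bs it was -0.276 and 0.192, a difference of -0.468 (adjusted p = 0.00966). With Hbb-bt it was -0.300 and 0.173, a difference of -0.472 (adjusted p = 0.0098). No pair differed between the generation labels at an adjusted p under 0.05. All 7 differences were also called on rank scores. No explanation for them was tested.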

How the results depend on the processing

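Over 1176 alternative values for the 8 transcripts, 1125 kept their side of the threshold, 43 lost a call and 8 gained one. No result called in the main or the alternative fit changed sign. Changes of sign among results called in neither were not counted, and the causes were not tested. Calls by diet moved most. Averaged over sexes, 1 transcript in place of 3 was called after median-of-ratios rescaling, after quantile normalization and in G11L1 or G11L2 mice alone. In females 1 in place of 2 was called after either rescaling and without the mice with pancreas transcripts, and 0 in each generation alone. In males 3 in place of 6 were called in G11L1 and 1 in G11L2 mice, with fewer mice in each fit. For the interaction, 1 in place of 0 was called with a pseudocount 10 times smaller and with a coat term, and 2 in G11L1 mice. The correlation of Alas2 with Hbb-bt was -0.0815 on raw log2 values, which keep the group means, in place of 0.196.

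Median-of-ratios rescaling moved the median log2 difference of all genes by sex on chow from 0.102 to -0.00823. Over all genes, interaction calls fell from 1223 to 617 with that rescaling, 633 with quantile normalization, 546 in G11L1 and 54 in G11L2 mice. Generation calls went from 137 to 262, 254, 344 with array weights, 263 with the haemoglobin covariate and 58 without the mice with pancreas transcripts. Diet calls in males fell from 7479 to 4906 with quantile normalization and 4930 in G11L2 mice, and in females from 4860 to 2348 and 2432 in single generations. Sex calls on the high fat diet fell from 7263 to 4748 in G11L2 mice.

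A male and a female can share a number in their names, and 92 pairs do, but the numbers did not pair them: the median correlation of their deviations was 0.005, and 8 pairs were above 0.1. With the number as a replicate block, Alas2 by sex was 2.49 (adjusted p = 5.38e-31), and none of the 64 results of the 8 transcripts changed its call. Leaving out the mouse with Xist against its label or the 10 mice least like the others changed no call either. Most of the smaller peaks in the kernel densities came and went with the bandwidth. Depth limits Slc4a1, with a median of 4.00 reads, most.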

Other observations

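The transcripts that ran most opposite to the globins across mice, outside the rule for naming genes and chosen after their values were seen, were Lama1, a basement membrane laminin chain (rho -0.59 with Hba-a2, -0.60 with Hbb-bs and -0.62 with Hbb-bt), both subunits of soluble guanylate cyclase, the nitric oxide receptor of stellate and smooth muscle cells (Gucy1a1 -0.58 with Hba-a2 and Gucy1b1 -0.61 with Hbb-bs), and the matrix protein Ecm1 (-0.61 with Hbb-bt). These values are residuals of the group and generation means over 192 mice, with no test. The opposite of Alas1 was Tnfaip2 (-0.63), followed by Cldn1 (-0.58). Those of Alas2 were Tspyl2 (-0.40) and Ctps2 (-0.33), both on chromosome X, and those of Bpgm were Dennd2a (-0.40) and Col14a1 (-0.37). For Hba-a1 they were Rapgef5 (-0.31) and Snrnp25 (-0.30), the latter on chromosome 11 with the alpha globin genes, and for Slc4a1 Usp5 (-0.36) and Angptl6 (-0.33).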
